A study of Mus musculus with 20 samples.

Results

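The 2 mouse induced pluripotent stem cell (iPSC) lines that the labels call good quality, BC_2 OSKM and Nanog-GFP SNEL#3, were compared with 3 control embryonic stem cell (ESC) lines. The members were chosen by these labels: 4 of the 20 arrays of the series belonged to the 2 good-quality lines, and 6 arrays belonged to the ESC lines, which are named KH2, Nanog-GFP and Oct4-GFP ESCs. Each line was hybridised on 2 one-colour Agilent expression arrays. Another 6 arrays of 3 poor-quality lines and 4 arrays of 2 high-quality lines entered the fits only to estimate the spread between lines. All lines were untreated and kept in 2i, a medium with inhibitors of the kinases MEK and GSK3, with no feeder cells underneath, per the labels. BC_2 OSKM was made with the Oct4, Sox2, Klf4 and Myc set (OSKM) and Nanog-GFP SNEL#3 with Sall4, Nanog, Esrrb and Lin28 (SNEL). The good-quality group therefore held 1 line per factor set, and factor set, reporter background and the single line cannot be told apart. The labels give no donor cell, passage number, sex or strain, and they do not say how quality was measured. Whether a line's 2 arrays stem from separate cultures is not stated either, so the line was the replicate.

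Embryonic stem cells held in 2i keep the self-renewing state of the early epiblast, run by Pou5f1 (Oct4), Sox2 and Nanog together with naive factors such as Esrrb, Klf4 and Tfcp2l1. Reprogramming has to shut off the somatic programme of the starting cell, switch on this network and keep imprinted loci intact, and iPSC lines are commonly judged by how near their transcriptome comes to that of ESCs. Differences among ESC lines themselves set the scale for that judgement.

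Levels below are log2 signals minus the 75th percentile of the array, so 0 is the brightness of the 75th percentile and a difference of 1 is a 2-fold difference. After dim probes were left out, 27155 genes were tested. Arrays of Nanog-GFP SNEL#3 were dimmer. There 51.0% of probes were well above background, against 62.0% in BC_2 OSKM and 63.4% to 66.6% in the ESC lines. The difference between good and ESC lines in this share was -8.69 percentage points (exact permutation test over lines, two-sided p = 0.2, the smallest p that 2 lines against 3 can give). The lowest signal called above background lay at -4.43 in Nanog-GFP SNEL#3, at -5.77 in BC_2 OSKM and between -6.20 and -5.82 in the ESC lines. A dim gene could thus be lost in Nanog-GFP SNEL#3 at a level where the other lines still measured it, and for such genes only a bound is given. Of the arrays of these 5 lines, one slide held the first arrays of both good lines and of KH2 ESCs, another the second arrays of both good lines and the first of the other ESC lines, and the last only the second arrays of the ESC lines. Differences within the first 2 slides are given for some genes where they depart, not for all. For example, the difference of Acta2 was -3.48, with -5.33 within the first slide and -2.52 within the second. That of Ngly1 was 1.16, with 0.73 and 1.59. A gene printed without such values is therefore not shown to be free of slide differences. As with all arrays, the number of lines limits the precision.

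The pluripotency markers were present in both good lines. All 30 core and naive pluripotency genes on the list were well above background on both arrays of each good line and on all 6 ESC arrays. Their median difference from the ESC mean was -0.05 in BC_2 OSKM and 0.26 in Nanog-GFP SNEL#3, beside -0.10 and -0.02 over all genes tested. Nanog-GFP SNEL#3 lay above all ESC lines for 20 of the 30 and below them for 1 (26.5% and 32.4% of all genes). BC_2 OSKM lay above them for 8 and below them for 10 (25.6% and 39.2% of all genes). The good lines differed most in Lin28a, given further below, and Tdh (7.37 and 8.68 against 8.49, 7.54 and 8.34). Esrrb, an orphan nuclear receptor of the naive network, measured 7.32 in BC_2 OSKM and 7.48 in Nanog-GFP SNEL#3, against 7.36, 7.43 and 7.37 in KH2, Nanog-GFP and Oct4-GFP ESCs. Nanog, the homeobox factor of the network, measured 6.99 and 6.52 against 6.98, 6.92 and 6.97. Pou5f1 measured 6.39 and 6.41 against 6.34, 6.28 and 5.15. For Pou5f1 the groups did not overlap, but the low value in Oct4-GFP ESCs made most of the difference of 0.48 ± 0.50 (log2, standard error), and within the first slide, where KH2 ESCs were the only ESC line, the difference was -0.04. Sox2 (3.95 and 4.11 against 3.69, 4.19 and 3.47) and Sall4, a zinc finger factor of the SNEL set (4.28 and 4.70 against 4.34, 4.46 and 3.92), overlapped the ESC lines. Klf4 (5.07 and 5.38 against 4.96, 4.92 and 4.35) and Klf5 (4.61 and 4.68 against 4.43, 4.53 and 4.27), related zinc finger factors, were a little higher in both good lines than in every ESC line. None of these differences passed the threshold.

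Across all genes, each good line stood near 1 ESC line and far from another, and the good lines stood farthest from one another. Distance was measured as the root mean square difference of line means in log2 units. The 3 ESC lines lay 0.506 to 0.719 apart. BC_2 OSKM lay 0.641 from Nanog-GFP ESCs, 0.919 from Oct4-GFP ESCs and 0.966 from KH2 ESCs. Nanog-GFP SNEL#3 took the reverse order, at 0.659 from KH2 ESCs, 0.729 from Oct4-GFP ESCs and 0.880 from Nanog-GFP ESCs. Both smallest distances, 0.641 and 0.659, were under the 0.719 between KH2 and Nanog-GFP ESCs. The good lines were 1.041 apart, more than any good line from any ESC line. Over the 19024 genes above background on all 10 arrays the same order held, with 0.857 between the good lines, 0.466 from BC_2 OSKM to Nanog-GFP ESCs and 0.489 from Nanog-GFP SNEL#3 to KH2 ESCs. The mean distance to ESC lines was 0.842 for BC_2 OSKM, 0.756 for Nanog-GFP SNEL#3, and 0.613, 0.701 and 0.594 for KH2, Nanog-GFP and Oct4-GFP ESCs. That difference of 0.163 had a permutation p of 0.2 (two-sided, over lines), again the smallest possible. The distances were always taken to the same ESC lines and not recomputed for each relabelling. This p therefore cannot decide whether the groups differ.

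**Figure D1:**
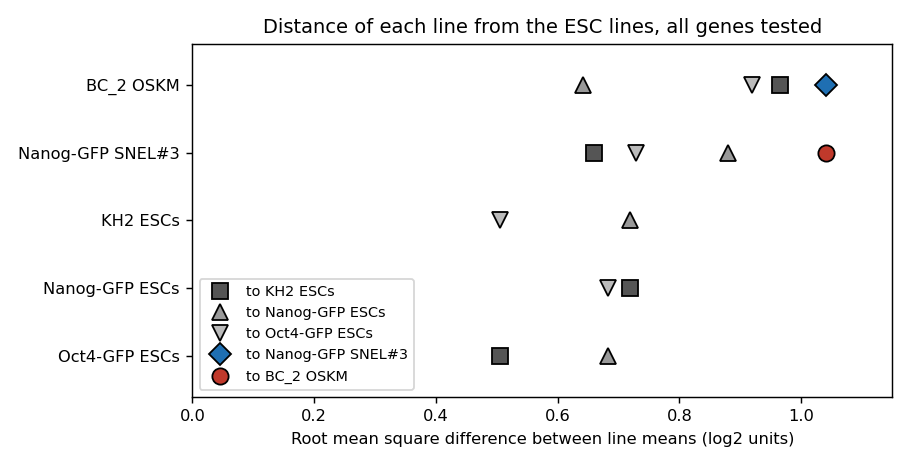
Root mean square difference (log2 units, x axis) between each line named on the left and the ESC lines or the other good line, over all 27155 genes tested; each symbol is 1 pair of line means. BC_2 OSKM sits nearest to Nanog-GFP ESCs (0.641), Nanog-GFP SNEL#3 nearest to KH2 ESCs (0.659), and the good lines are 1.041 apart.

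Gene by gene, the same split appeared. BC_2 OSKM was nearest to Nanog-GFP ESCs for 15060 genes, while Nanog-GFP SNEL#3 was nearest to KH2 ESCs for 11382 and to Nanog-GFP ESCs for 7311. The good lines deviated from the ESC mean in opposite directions for 51.2% of genes. They differed from each other by over 2-fold for 5704 genes, 3180 of them higher in BC_2 OSKM and 2524 higher in Nanog-GFP SNEL#3. When the good lines were tested as a group against the ESC lines (limma, Benjamini-Hochberg over all genes), 0 of 27155 genes (0%) passed an adjusted p of 0.05, and the lowest adjusted p was 0.558. At an unadjusted p under 0.05 there were 1673 genes (6.16%), 319 higher (1.17%) and 1354 lower (4.99%) in the good lines. Both good lines lay above all ESC lines for 1830 genes (6.74%) and below all of them for 3818 genes (14.1%). These 2 percentages are the background against which the lists below are read. A distance of over 2-fold outside the ESC range in both good lines was reached by 55 genes above and 91 below.

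Both good lines shared a lower level of fibroblast and stromal genes. Of the 25 list members tested, 23 were lower on average in the good lines (57.5% of all genes were) and 17 (68.0%, against 14.1% of all genes) lay below every ESC line in both. The median difference was -1.61, with -1.87 in BC_2 OSKM and -2.20 in Nanog-GFP SNEL#3, against -0.05 over all genes. In Nanog-GFP SNEL#3 15 of the 25 were above background on neither array, so -2.20 rests on signal under background and is not a measured level. No member passed the adjusted threshold. Among the 7 members that were above background on all 10 arrays, 6 were lower, 3 lay below every ESC line, and the median difference was -0.63. For these 7 the median was -0.77 in BC_2 OSKM and -0.49 in Nanog-GFP SNEL#3. Of all 19024 genes above background on all 10 arrays, 10448 were lower and 2100 lay below every ESC line, with a median of -0.03. With normexp background correction in place of the scanner's, the median difference of the whole list was -0.70.

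Type I collagen, the main fibre of connective tissue matrix, gave large gaps for both chains. Col1a2 measured -1.65 in BC_2 OSKM and -3.89 in Nanog-GFP SNEL#3, against 1.66, 1.75 and 0.99 in KH2, Nanog-GFP and Oct4-GFP ESCs. Both good lines were below all ESC lines, by 4.24 ± 0.90 on the log2 scale (18.8-fold; unadjusted p = 0.00151, adjusted p = 0.558). Col1a1 measured -0.71 in BC_2 OSKM and was not well above background in Nanog-GFP SNEL#3, where it was at least 48.0-fold lower than the mean of the ESC lines (1.49, 1.45 and 0.54). Col3a1, a collagen of soft tissues, measured -3.33 in BC_2 OSKM against -0.10, 0.06 and -0.97, and in Nanog-GFP SNEL#3 it was below background, at least 17.0-fold lower than the ESC lines. Thbs1, which encodes the matrix protein thrombospondin 1, measured -5.48 and -6.45 against -0.54, -2.49 and -1.62. It was not well above background in Nanog-GFP SNEL#3 (at least 7.33-fold lower) and above it on 1 of 2 arrays of BC_2 OSKM. Acta2, smooth muscle actin, measured -3.18 and -4.31 against 1.37, -1.22 and -0.95. Here the ESC lines spread widely, with KH2 ESCs far above the others, yet both good lines lay under the lowest of them.

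Several of these genes could not be measured at all in the good lines. Ccdc80, a secreted matrix protein, was not well above background on any of the 4 good arrays while it was on all 6 ESC arrays (-1.76, -3.04 and -2.86), a difference of at least 5.83-fold. The same was true of Postn, which encodes periostin (at least 2.74-fold), and of Prss23, a secreted protease outside the list (at least 3.49-fold). The chemokine Ccl2 and the matrix protein Mgp, also outside the list, were above background on 1 of 2 arrays of BC_2 OSKM and on none of Nanog-GFP SNEL#3. They were at least 5.72-fold and 2.92-fold lower in the latter line. With normexp background correction the group differences of these dim genes were smaller in size, at -2.12 for Thbs1, -1.60 for Ccdc80, -0.90 for Postn, -1.04 for Prss23, -1.80 for Ccl2 and -1.22 for Mgp. In contrast, Fn1 (7.56 and 7.22 against 6.96, 7.33 and 6.99), Thy1 and Sparc (8.40 and 6.77 against 7.79, 7.52 and 7.79) were not lower in both lines, and Vim measured 2.93 in BC_2 OSKM but 5.71 in Nanog-GFP SNEL#3. Summed over the list, the linear level was 539 in BC_2 OSKM, 314 in Nanog-GFP SNEL#3 and 375 to 409 in the ESC lines, so the sum, unlike most members, did not separate the groups. Of the 25 members, 18 were above background on all arrays of BC_2 OSKM, 7 on those of Nanog-GFP SNEL#3 and 24 on those of the ESC lines. In bulk RNA, fewer cells of a type and less RNA per cell cannot be told apart. The part that other cells in the ESC cultures had in these values was not tested.

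**Figure D2:**
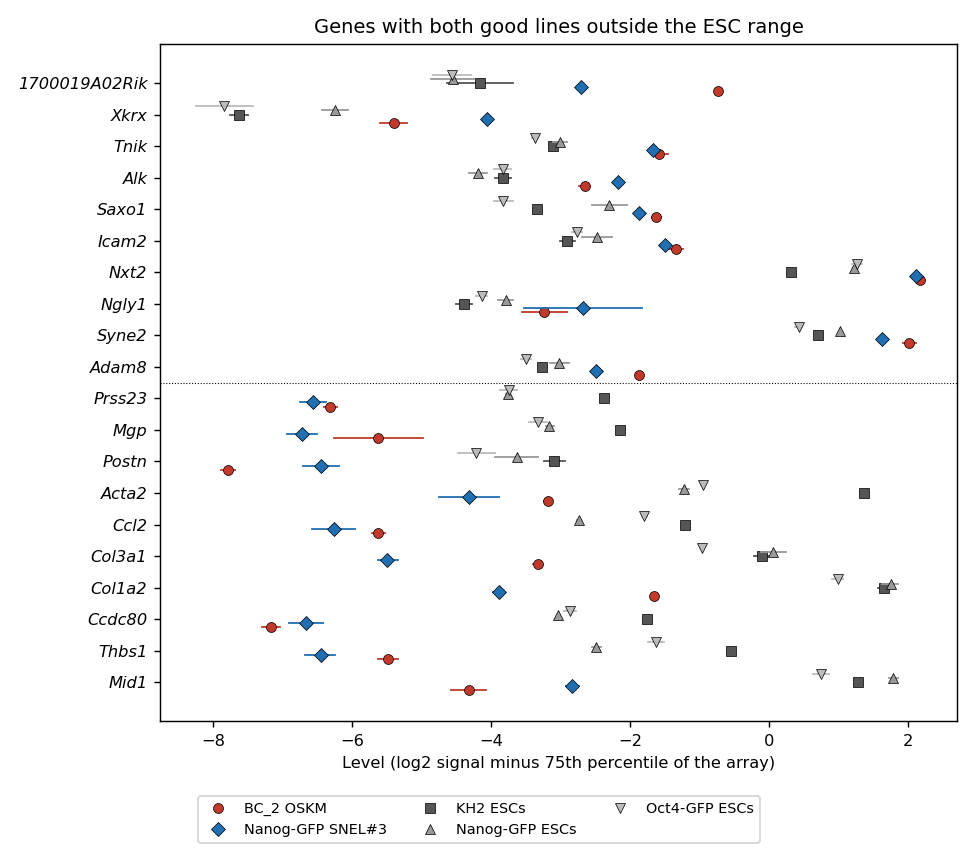
Levels (log2 signal minus the array's 75th percentile, x axis) of the 10 genes with the largest positive difference in means and the 10 with the largest negative one. They were taken from genes with unadjusted p under 0.01, no overlap between groups and detection on all arrays of the brighter group. Symbols are line means and bars span the 2 arrays of a line. Mid1 in the lowest row measures -4.32 and -2.83 in the good lines and 0.75 or more in the ESC lines.

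The largest gap among genes that met the naming rule, with both groups measured, was that of Mid1, an X-linked ubiquitin ligase bound to microtubules. It measured -4.32 in BC_2 OSKM and -2.83 in Nanog-GFP SNEL#3, against 1.28, 1.79 and 0.75 in KH2, Nanog-GFP and Oct4-GFP ESCs. Both good lines were far below all ESC lines, by 4.85 ± 1.00 on the log2 scale (28.8-fold; unadjusted p = 0.00128, adjusted p = 0.558), and a further probe of the gene showed the same (-4.99 and -3.46 against 0.36, 0.79 and -0.19). Of the other 5 iPSC lines, Nanog-GFP SNEL#2 of the high-quality group also measured low, at -2.43, and the remaining 4 lay between 0.58 and 1.47. A low Mid1 was therefore a property of 3 iPSC lines and was not shared by all.

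Genes higher in both good lines were fewer and the gaps smaller. By the naming rule, 19 of the 15949 tested genes with a RefSeq symbol qualified as higher and 115 as lower. The rule asks for an unadjusted p under 0.01, no overlap, and detection on all arrays of the brighter group. A rise thus needed detection on the dimmer arrays of Nanog-GFP SNEL#3 and a fall did not, so the 2 counts were not reached on equal terms. The largest difference was that of 1700019A02Rik, which measured -0.73 and -2.70 against -4.16, -4.55 and -4.56, a difference of 2.71 ± 0.79. BC_2 OSKM was far above the other good line there. Xkrx, an X-linked XK-family membrane protein gene, was above background on all 4 good arrays and on none of the 6 ESC arrays, a difference of at least 2.50-fold. With normexp background correction its difference was 0.66. Tnik, a kinase that acts with the Wnt effector TCF4, was tighter: -1.58 and -1.67 against -3.11, -3.01 and -3.37, or 1.54 ± 0.24 higher (2.90-fold; unadjusted p = 0.000209, adjusted p = 0.558). The other 5 iPSC lines lay between -2.35 and -1.63, so Tnik was above the ESC range in every iPSC line of the series. Alk, a receptor tyrosine kinase, measured -2.65 and -2.17 against -3.82, -4.19 and -3.83, a difference of 1.53 ± 0.28. Syne2, a linker of nucleus and cytoskeleton, measured 2.02 and 1.63 against 0.70, 1.02 and 0.43. The nuclear export factor Nxt2 measured 2.17 and 2.12 against 0.31, 1.23 and 1.27. The adhesion molecule Icam2 measured -1.34 and -1.49 against -2.90, -2.47 and -2.76. For Saxo1 (1.40 ± 0.40), Ngly1 (1.16 ± 0.24) and Adam8 (1.08 ± 0.32) the groups also did not overlap. All 20 named genes of both directions kept their sign within the first slide and within the second.

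Of 24 genes of DNA methylation, 1 lay above all ESC lines in both good lines and 1 below them. These shares of 4.17% each stood beside 6.74% and 14.1% of all genes. Taken singly, BC_2 OSKM lay above all ESC lines for 3 and below them for 9 (25.6% and 39.2% of all genes). Nanog-GFP SNEL#3 lay above them for 10 and below them for 7 (26.5% and 32.4% of all genes). Dnmt3l, the cofactor of the de novo DNA methyltransferases, measured 4.96 in BC_2 OSKM and 4.75 in Nanog-GFP SNEL#3, against 3.81, 2.92 and 3.99 in the ESC lines. Both good lines were above all ESC lines, by 1.28 ± 0.50 (2.43-fold; unadjusted p = 0.0334, adjusted p = 0.769). Ehmt1, a histone H3 lysine 9 methyltransferase, was the 1 below (4.14 and 4.48 against 4.81, 4.66 and 4.78). Its difference of -0.44 was -0.16 within the first slide and -0.25 within the second. Dnmt1, Dnmt3a and Uhrf1, the maintenance enzyme, a de novo enzyme and the hemimethylation reader, differed from the ESC mean by 0.15 or less. The other de novo enzyme, Dnmt3b, was below all ESC lines in BC_2 OSKM (1.99 against 5.23, 3.30 and 4.29). In Nanog-GFP SNEL#3 it measured 5.23. The list as a whole had 7 members higher and 17 lower, with a median of -0.09.

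At the imprinted Dlk1-Dio3 locus on chromosome 12, whose maternal noncoding RNAs are often silenced in mouse iPSCs, both maternal RNAs tested were measured in both good lines. The maternal transcript Meg3 measured 5.65 and 6.53 against 4.90, 5.08 and 4.38, above all ESC lines in both, with a difference of 1.30 ± 0.85. The maternal transcript Mirg measured 2.29 and 4.74 against 3.25, 2.32 and 2.16, above all ESC lines in Nanog-GFP SNEL#3 and inside their range in BC_2 OSKM. A dimmer Mirg probe measured 0.77 and 3.73 against 2.17, 0.83 and 0.89, so there BC_2 OSKM lay a little below all ESC lines. Of the paternal genes, Dlk1 measured -1.21 and -2.79 against -1.55, -1.77 and -2.22, and Dio3 -0.89 and -1.45 against -1.96, -1.39 and -2.31. BC_2 OSKM was above all ESC lines in both, whereas Nanog-GFP SNEL#3 was below them in Dlk1 and inside their range in Dio3. Of the 4 genes of the locus that were tested, 3 were higher on average and none passed the threshold.

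Among 33 other imprinted genes, 18 were higher and 15 lower, with 1 above and 5 below the ESC range in both lines (3.03% and 15.2%), beside 6.74% and 14.1% of all genes. Zdbf2, a paternally expressed gene, measured -4.35 and -2.14 against -0.61, -1.27 and -0.98, lower by 2.29 ± 0.96. Igf2, the paternally expressed growth factor, measured -5.80 and -5.52 against -3.73, -4.50 and -4.87, at the edge of detection in the good lines, and its difference of -1.30 was -0.29 within the second slide and -0.19 with normexp. Peg3, a paternally expressed zinc finger gene, was higher (-1.18 and -0.07 against -1.59, -1.42 and -2.12). Mest, a paternally expressed gene chosen here after its values were seen, varied widely among the ESC lines themselves. It measured -4.95 in KH2, -7.54 in Nanog-GFP and 2.89 in Oct4-GFP ESCs, and 0.56 and 2.95 in the good lines.

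Targets of p53 were more often higher, mainly in BC_2 OSKM. Of 28 genes, 21 were higher on average (75%, against 42.5% of all genes), 4 lay above all ESC lines in both good lines and 1 below. The median was 0.48 in BC_2 OSKM and 0.06 in Nanog-GFP SNEL#3. In BC_2 OSKM 23 of 28 were above the ESC mean (41.2% of all genes) and in Nanog-GFP SNEL#3 15 (48% of all genes). For 14 genes the good lines had opposite signs. The ESC lines took medians of -0.11 in KH2, 0.26 in Nanog-GFP and -0.15 in Oct4-GFP ESCs. Phlda3, a repressor of AKT signalling, measured 4.54 and 4.45 against 3.78, 4.13 and 3.75, a difference of 0.61 ± 0.17 (unadjusted p = 0.00768, adjusted p = 0.59). Aen, an apoptosis nuclease (6.15 and 6.52 against 5.96, 6.06 and 6.07), and Cd80 (-1.11 and -1.07 against -1.47, -1.41 and -1.53) were above the range by less. A dimmer Cd80 probe measured -2.81 and -1.81 against -2.43, -2.96 and -2.75, so there BC_2 OSKM lay inside the ESC range. Cdkn1a, the p21 cell cycle inhibitor, measured 4.81 in BC_2 OSKM and 3.88 in Nanog-GFP SNEL#3 against 3.84, 4.17 and 4.12, high in the first line only. Gtse1, a p53 target that restrains p53 in turn, was the 1 gene below (-1.0 and 0.03 against 0.80, 0.24 and 0.57), and within the second slide its difference was 0.02.

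Ribosomal protein genes were slightly higher as a class. Of 85 genes, 72 were higher on average and 28 (32.9%, against 6.74% of all genes) lay above all ESC lines in both good lines, but the median difference was only 0.09. The shift depended on the scaling: it was 0.02 after quantile normalization and 0.02 in the authors' deposited value table. Core histone genes had 29 of 40 lower, beside 57.5% of all genes, with a median of -0.44 in BC_2 OSKM and 0.00 in Nanog-GFP SNEL#3. The variant H2ax, which marks DNA breaks when phosphorylated, measured 6.36 and 7.07 against 6.87, 6.84 and 6.82, below the ESC lines in BC_2 OSKM and above them in Nanog-GFP SNEL#3.

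In several other gene groups the good lines lay on opposite sides of the ESC mean, and the ESC lines were themselves spread in the same direction. The hypoxia response was one. These genes are switched on by the HIF transcription factors when oxygen is low. HIF binds DNA at a core that contains ACGTG, and many of its targets carry this core upstream of the start site. The 250 bases upstream of the start are printed for 3 genes of the list with a single listed start site, the largest differences between the good lines and at least 1 match. They come from RefSeq on GRCm38.p6, 5′ to 3′ on the gene's strand, with ACGTG or its reverse complement CACGT in capitals.
Ankrd37: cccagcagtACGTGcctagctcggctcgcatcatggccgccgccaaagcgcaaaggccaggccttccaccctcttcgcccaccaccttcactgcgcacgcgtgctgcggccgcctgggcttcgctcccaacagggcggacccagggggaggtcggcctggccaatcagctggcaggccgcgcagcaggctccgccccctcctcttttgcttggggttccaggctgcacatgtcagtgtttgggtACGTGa
P4ha1: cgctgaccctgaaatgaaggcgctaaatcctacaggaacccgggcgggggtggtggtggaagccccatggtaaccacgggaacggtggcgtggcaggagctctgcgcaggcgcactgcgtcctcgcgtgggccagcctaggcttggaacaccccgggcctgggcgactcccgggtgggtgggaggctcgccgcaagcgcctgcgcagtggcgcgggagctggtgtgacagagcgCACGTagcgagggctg
Egln3: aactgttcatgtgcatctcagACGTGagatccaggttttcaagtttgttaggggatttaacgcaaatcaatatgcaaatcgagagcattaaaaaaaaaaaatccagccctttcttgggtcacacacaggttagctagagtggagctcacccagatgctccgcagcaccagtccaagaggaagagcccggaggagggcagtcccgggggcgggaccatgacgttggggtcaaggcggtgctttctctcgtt
Ankrd37 lies on the minus strand at chr8:45999851-46000100, P4ha1 on the plus strand at chr10:59323046-59323295 and Egln3 on the minus strand at chr12:54203875-54204124. Of the 18 hypoxia genes, 17 had a promoter entry and 12 held the core on either strand in this window, beside 18.5% of all 27025 genes with an entry. A palindromic CACGTG counts on both strands, and a match is a description of letters, not of binding.

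All 18 hypoxia genes were measured on all 10 arrays. In BC_2 OSKM 15 of 18 were above the ESC mean with a median difference of 0.53, and in Nanog-GFP SNEL#3 1 of 18 was, with a median of -1.11. Of all genes, 41.2% were above the ESC mean in BC_2 OSKM and 48% in Nanog-GFP SNEL#3, and the counts of other lists above that mean are read against these shares. Nanog-GFP SNEL#3 lay below all ESC lines for 14 of the 18 (32.4% of all genes did), and BC_2 OSKM above all of them for 8 (25.6% of all genes, with 39.2% below). BC_2 OSKM was higher than Nanog-GFP SNEL#3 for 16 of the 18, against 45.4% of all genes. The ESC lines took median values of -0.68 in KH2, -0.07 in Oct4-GFP and 0.68 in Nanog-GFP ESCs. BC_2 OSKM thus sat beside Nanog-GFP ESCs, and Nanog-GFP SNEL#3 below KH2 ESCs. Within the first slide, with KH2 ESCs as reference, the medians were 1.25 and -0.51, and within the second, with Nanog-GFP and Oct4-GFP ESCs, 0.27 and -1.66, so both signs held.

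Named members showed the same order. Adm, the vasodilator peptide adrenomedullin, measured 0.66 in BC_2 OSKM and -3.61 in Nanog-GFP SNEL#3, against -0.76, 1.27 and 0.09 in KH2, Nanog-GFP and Oct4-GFP ESCs. Ankrd37, a HIF target of uncertain function, measured 3.31 and -0.27 against 1.11, 2.52 and 2.00. For Adm only Nanog-GFP SNEL#3 was outside the ESC range, while for Ankrd37 both good lines were, on opposite sides. The next values are of members chosen after they were seen. Vegfa, the endothelial growth factor, measured 4.80 and 1.95 against 2.92, 4.39 and 3.72. Bnip3, a mitophagy receptor, measured 7.20 and 5.06 against 5.61, 7.16 and 6.07. Egln3, an oxygen-sensing prolyl hydroxylase that marks HIF for decay, measured 2.54 and 0.27 against 1.30, 2.96 and 1.86, and P4ha1, a collagen prolyl hydroxylase, 1.41 and -2.13 against -1.79, 0.45 and -1.19. In all 4, Nanog-GFP SNEL#3 lay below all ESC lines, and BC_2 OSKM lay above Nanog-GFP ESCs in all but Egln3. Single differences between the good lines reached 4.27 ± 1.68 (Adm) and 3.58 ± 1.17 (Ankrd37), and none passed the threshold (adjusted p = 0.529 and 0.515).

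**Figure D3:**
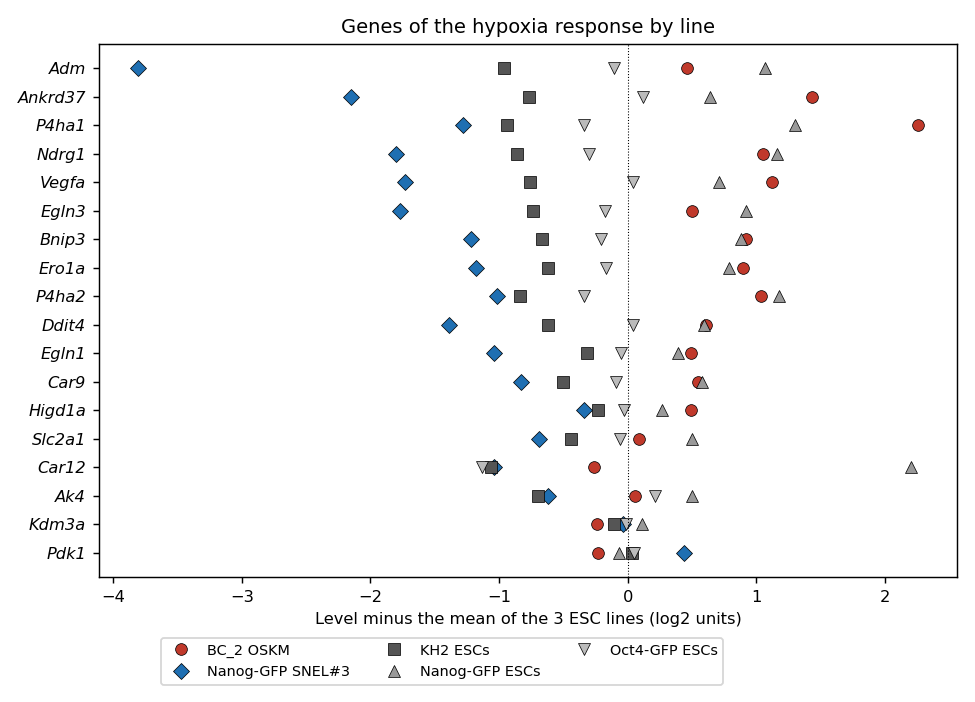
Level of each of the 18 hypoxia genes minus the mean of the 3 ESC lines (log2 units, x axis), one symbol per line mean. Nanog-GFP SNEL#3 is left of all ESC lines for 14 of the 18 genes, and BC_2 OSKM lies near Nanog-GFP ESCs on the right.

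Glycolysis genes, 2 of which are also on the hypoxia list, followed the same order at a smaller scale. In BC_2 OSKM 20 of 22 were above the ESC mean (41.2% of all genes were; median 0.44) and in Nanog-GFP SNEL#3 5 of 22 (48% of all genes; median -0.32). The lactate exporter Slc16a3 measured 6.57 and 3.98 against 5.02, 6.28 and 5.61, and the enolase Eno2 measured 1.03 and -1.51 against -0.31, 0.90 and 0.08. Other members were nearly level: Gapdh measured 9.12 and 9.09 against 9.05, 9.14 and 9.04, and Eno1 8.38 and 8.39 against 8.27, 8.43 and 8.33. All 22 values of a line share 1 pair of arrays, and the cause of the difference was not tested.

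Genes of the 2-cell-like state, a rare fluctuation of ESCs towards the cleavage embryo, differed by more. Zscan4b, a zinc finger gene of that state, measured 1.06 in BC_2 OSKM and -6.61 in Nanog-GFP SNEL#3, against -4.28 in KH2, 0.28 in Nanog-GFP and -3.38 in Oct4-GFP ESCs. It was not well above background in Nanog-GFP SNEL#3, where it was at least 44.8-fold lower than in BC_2 OSKM. Zscan4f measured 1.03 and -5.42 against -4.27, 0.40 and -3.33, with a bound of at least 42.4-fold. These near-identical copies may share signal through cross-hybridisation and are not independent. Of the 12 tested members, 10 were above the ESC mean in BC_2 OSKM with a median of 1.77, whereas 4 were in Nanog-GFP SNEL#3 with a median of -0.39. Only 1 of the 12 was above background on both arrays of Nanog-GFP SNEL#3, so its low values are bounds. That gene, Zfp352, was above all ESC lines in both good lines, at 2.79 and 3.27 against 2.63, 2.50 and 2.43.

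Germline genes, many of them silenced by DNA methylation in somatic cells, were more often high in BC_2 OSKM, where 22 of 27 were above the ESC mean (41.2% of all genes; median 0.74). In Nanog-GFP SNEL#3 11 of 27 were (median -0.33), a share near the 48% of all genes. Dazl, an RNA-binding protein of germ cells, measured 0.39 and -3.11 against -2.23, -0.59 and -1.46, and Mael, a piRNA pathway protein, 2.86 and -0.20 against -0.30, 1.78 and -0.42. For both, BC_2 OSKM was above all ESC lines. The meiotic gene Stra8 (3.76 and -2.30 against 0.89, 4.36 and 1.18), the meiotic kinase Aurkc (5.12 and -1.42 against 0.87, 4.79 and 2.43) and the oocyte homeobox gene Obox6 (3.05 and -2.37 against -2.54, -0.45 and -2.37) were picked with their values known. Each was high in BC_2 OSKM and, for the first 2, in Nanog-GFP ESCs as well. For the X-linked lymphocyte-regulated gene Xlr3b both good lines lay above the ESC lines (-2.15 and -3.45 against -4.86, -3.57 and -4.87). Its relative Xlr4a was above background in BC_2 OSKM alone, Xlr4b was so on 1 of 2 arrays of Nanog-GFP SNEL#3 and 1 of 6 ESC arrays, and Xlr3a on none of the 10. Within the first slide the differences of Xlr4a and Xlr4b were 0.04 and 0.19. These paralogs are close in sequence, and their values are uncertain.

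Several signalling targets had the reverse order, lower in BC_2 OSKM. Of 18 Wnt targets tested, 5 were above the ESC mean in BC_2 OSKM (median -0.76; 41.2% of all genes) and 9 in Nanog-GFP SNEL#3 (median -0.03), a share near the 48% of all genes. Bmp4, a secreted signal that acts with LIF in ESC self-renewal, measured -2.30 in BC_2 OSKM and 2.54 in Nanog-GFP SNEL#3, against 2.32, -0.20 and 2.16 in KH2, Nanog-GFP and Oct4-GFP ESCs. Both good lines lay outside the range, at opposite ends, and 4.84 ± 1.67 apart (adjusted p = 0.517). ERK targets had a median of -0.23 in BC_2 OSKM and 0.36 in Nanog-GFP SNEL#3. Etv1, an ETS factor, measured -0.13 and 2.64 against 2.72, 0.62 and 2.42. Id3, a BMP target outside the lists that was chosen after its values were seen, measured -1.98 and 3.16 against 1.14, -1.99 and 0.48, and the hormone gene Trh, chosen likewise, 2.46 and 8.06 against 6.65, 3.6 and 6.30. In each of these genes BC_2 OSKM was near or below Nanog-GFP ESCs, and in Bmp4, Id3 and Trh Nanog-GFP SNEL#3 was the highest line of the 5.

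The reprogramming factors Myc and Lin28a had this order too. Myc measured -4.49 in BC_2 OSKM, whose factor set included it, and -0.79 in Nanog-GFP SNEL#3, against -0.47 in KH2, -4.46 in Nanog-GFP and -1.41 in Oct4-GFP ESCs. BC_2 OSKM and Nanog-GFP ESCs were alike in this gene, and well below the other 3 lines. Lin28a, an RNA-binding protein that blocks let-7 and part of the SNEL set as Lin28, measured 2.94 and 5.27 against 5.4, 3.65 and 4.56. The de novo methyltransferase Dnmt3b measured 1.99 and 5.23 against 5.23, 3.30 and 4.29, and the Nodal antagonist Lefty1 measured 1.47 and 4.21 against 3.44, 3.14 and 3.22. Among the 18 primed epiblast genes tested, 3 were above the ESC mean in BC_2 OSKM (median -0.63) and 7 in Nanog-GFP SNEL#3 (median -0.15). Zic2 (1.11 and 1.86 against 2.16, 2.65 and 1.87) and Sall2 (-1.50 and -1.68 against -0.08, -1.48 and -0.50) were below the range in both lines, while Nodal was above it by a little (4.20 and 4.48 against 4.12, 4.10 and 4.18).

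**Figure D4:**
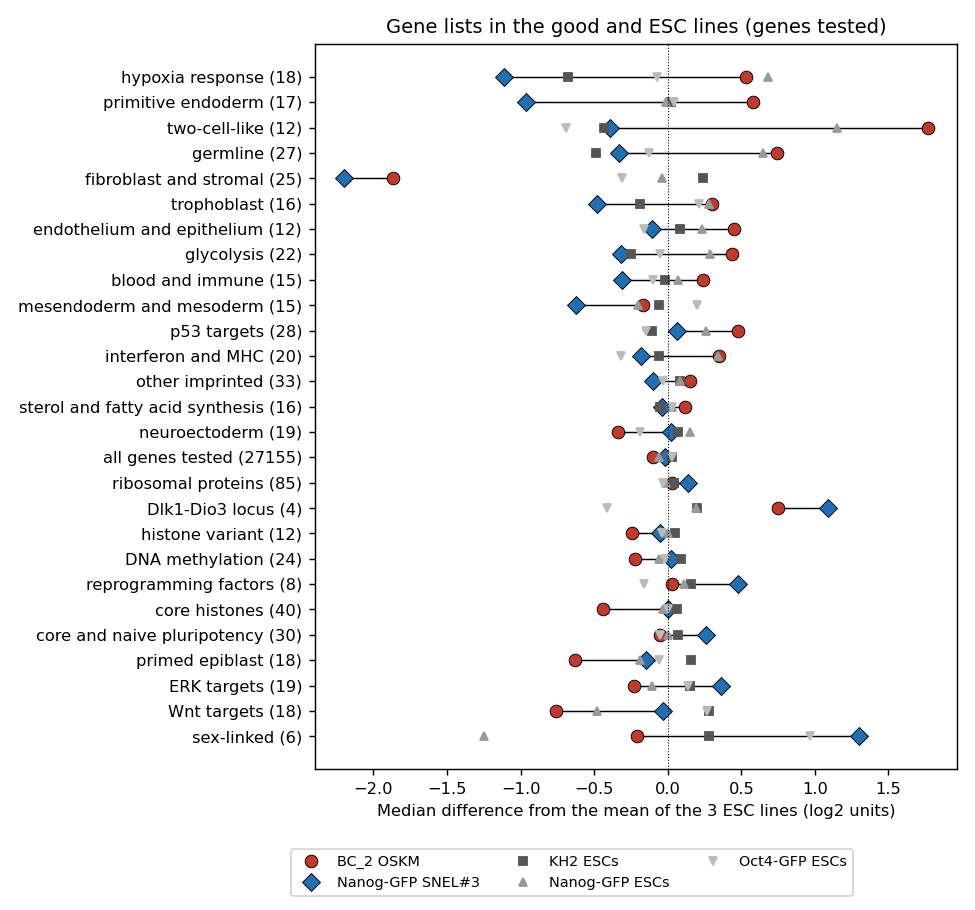
Median difference from the mean of the 3 ESC lines (log2 units, x axis) for each gene list and for all genes tested, with the number of genes tested in brackets; large symbols are the good lines, joined by a bar, and small symbols the ESC lines. The hypoxia list reads 0.53 in BC_2 OSKM and -1.11 in Nanog-GFP SNEL#3. The fibroblast and stromal list is low in both, at -1.87 and -2.20. The latter value rests on signal under background, as 15 of the 25 genes were not detected in Nanog-GFP SNEL#3.

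In the remaining lists, several single genes were far higher in BC_2 OSKM than in Nanog-GFP SNEL#3. Krt19, a keratin of simple epithelia, measured 2.67 and -2.55 against -0.49, -0.16 and -0.45, with the good lines 5.22 ± 2.08 apart (adjusted p = 0.529). Slc38a4, an imprinted amino acid transporter gene, measured 4.16 and -1.44 against 0.81, 3.26 and 1.71. Gadd45b, a stress response gene linked to demethylation, measured 4.72 and 0.64 against 2.31, 4.42 and 2.83. In all 3 the good lines lay above and below every ESC line. Krt18, another keratin gene, showed the same (4.18 and 1.47 against 2.67, 2.99 and 2.04). Psmb9, an immunoproteasome subunit, measured 0.61 and -2.21 against -2.02, -0.21 and -2.20, and Tap1, part of the MHC peptide transporter, -3.08 in BC_2 OSKM against -5.10, -3.03 and -5.69, and it was not well above background in Nanog-GFP SNEL#3. Isg15, an interferon-induced ubiquitin-like protein, was low in both by a little (-2.19 and -2.17 against -2.01, -1.98 and -1.87). Sterol and fatty acid synthesis genes had medians of 0.12 and -0.04. Among those 16, Dhcr7, which makes cholesterol, was the farthest apart, at 2.50 and 1.26 against 1.66, 1.63 and 1.81.

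Markers of other cell types were read for signs of differentiation. In primitive endoderm, 12 of 17 genes were above the ESC mean in BC_2 OSKM (median 0.58) and 3 in Nanog-GFP SNEL#3 (median -0.96), and 0 members lay outside the ESC range on the same side in both. The summed linear level was 372 and 150, against 208 to 258 in the ESC lines. Amn, an endocytic receptor subunit of that tissue, measured -0.04 and -3.6 against -2.47, -1.13 and -2.38, but Sox7, one of its transcription factors, went the other way, not well above background in BC_2 OSKM and -2.02 in Nanog-GFP SNEL#3 against -2.63, -5.22 and -3.61. Trophoblast markers (16 tested) had medians of 0.30 and -0.48 and summed levels of 81.9 and 55.9 against 48.3 to 67.8. Esx1, a placental homeobox gene, measured -0.13 and -3.66 against -1.73, 0.01 and -1.77, and the placental hormone gene Prl3d1 was lower in both (-4.43 and -4.48 against -3.68, -3.57 and -3.19), with a difference of -0.98 that was -0.15 within the second slide. Neither list set the good lines apart from the ESC lines as a group.

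Mesendoderm and mesoderm markers (15 tested) had medians of -0.17 and -0.62 and summed levels of 19.8 and 6.87 against 12.2 to 16.2. Cdx1, a caudal homeobox gene, measured 3.73 and 0.59 against 2.55, 2.46 and 3.05, and Evx1 was not well above background in BC_2 OSKM and measured -3.90 in Nanog-GFP SNEL#3 against -3.07, -5.43 and -3.43. Neuroectoderm markers (19 tested) had medians of -0.34 and 0.02 and summed levels of 8.81 and 14.4 against 12.2 to 19.2. Tubb3, neuronal tubulin, measured -1.51 and 1.86 against 2.42, 0.41 and 2.71. Blood and immune markers (15 tested) had medians of 0.24 and -0.31 and summed levels of 40.9 and 31.8 against 31.5 to 34.6. The pan-leukocyte gene Ptprc was not well above background on any of the 4 good arrays, and it was on 4 of the 6 ESC arrays. Hba-a1, a globin gene, measured -1.72 in BC_2 OSKM and -4.21 in Nanog-GFP SNEL#3, against -4.05, -3.84 and -4.35 in the ESC lines. The haematopoietic factor Runx1 was higher in BC_2 OSKM (0.12) than in the other 4 lines, where it lay between -3.15 and -1.77. Endothelial and epithelial markers (12 tested) had medians of 0.45 and -0.11 and summed levels of 51.7 and 30.5 against 31.5 to 38.3. Tie1, an endothelial receptor, was above background on both arrays of BC_2 OSKM and on no other of the 10 arrays, at least 2.88-fold above the ESC lines.

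Fitted alone against the ESC lines, BC_2 OSKM had 6 genes past an adjusted p of 0.05 (0.0221% of genes; limma, with this single line assumed to vary like the others), 1 higher (0.00368%) and 5 lower (0.0184%). They are shown here by the first 30 bases of the 60-base array probe that carried each call, 5′ to 3′, because most are transcript models without a standard gene symbol.
ENSMUST00000111363: gcactctctgaactacttagtgtctgtgca
ENSMUST00000097468: atttgagtttctacactttgtctgacagta
ENSMUST00000098156: tttggatcttgcacaactgcaggactcatg
4930571B16Rik: tgctagaaagagaggttggagtgttaagga
Rint1: gtgagatcttatctgtttcaccaccacaaa
LOC100044317: tcatctttgtgacattacatactttcacag
On mm9, the build of the array design, the whole probes lie at chr1:171440451-171440510, chr1:172916478-172916537, chr4:34899141-34899200, chr17:55702746-55702805, chr5:23326056-23326115 and chrX:133508386-133508445, in the same order.

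The probe ENSMUST00000111363 showed the largest change. It measured -8.02 and -7.75 on the 2 arrays of BC_2 OSKM, not well above background, and 0.25 and 0.38 on those of Nanog-GFP SNEL#3. The ESC line means were 0.57, -0.23 and 0.23, and over all 8 ESC and other iPSC lines the range was -0.45 to 0.57. It fell in BC_2 OSKM by at least 62.0-fold (adjusted p = 0.00725). The array's annotation assigns the transcript to Nuf2, a kinetochore component needed for chromosome segregation. The brightest probe of Nuf2 itself, chosen after its value was seen, measured 0.83 and 0.98 against 1.24, 0.89 and 1.01, and did not show the fall. A dimmer Nuf2 probe measured -5.80 and -3.05 against -3.95, -3.72 and -3.70, lower in BC_2 OSKM. There it lay at the lowest signal called above background (-5.77). The probes of Nuf2 thus differed on whether the gene fell.

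Rint1, whose protein works in Golgi-to-ER traffic and the DNA damage checkpoint, fell in BC_2 OSKM by 2.88 ± 0.26 on the log2 scale (adjusted p = 0.0471). It measured -2.84 there, 0.54 in Nanog-GFP SNEL#3 and 0.17, -0.03 and -0.02 in the ESC lines, with all 8 ESC and other iPSC lines between -0.18 and 0.37. This was the only one of the 5 lower genes still above background in BC_2 OSKM. ENSMUST00000097468, an uncharacterised transcript, was not well above background in BC_2 OSKM and -1.03 in Nanog-GFP SNEL#3 against -0.54, -1.70 and -1.69, a fall of at least 22-fold (adjusted p = 0.0471) that a further probe also showed (-7.79 against -1.68, -2.71 and -2.68). ENSMUST00000098156 fell by at least 6.67-fold and 4930571B16Rik by at least 3.90-fold (both with an adjusted p of 0.0186). The latter was not well above background in Nanog-GFP SNEL#3 either. LOC100044317, a predicted X-linked gene, rose: it measured -1.90 in BC_2 OSKM and between -6.60 and -5.37 in the other 9 lines, with 2 of 6 ESC arrays above background, and differed by 4.28 ± 0.32 (adjusted p = 0.0198). Against Nanog-GFP SNEL#3, where it was not well above background, it was at least 5.78-fold higher. As 4 of the 6 ESC arrays were under background, the size of the difference rests on the background correction, and with normexp it was 2.06. The 6 calls kept their sign within each slide. With any 1 line left out the number of calls lay between 0 and 9; it was 0 without Nanog-GFP OSKM#2 or without Oct4-GFP ESCs and 1 without KH2 or Nanog-GFP ESCs. It was 0 when only good and ESC lines entered the fit.

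**Figure D5:**
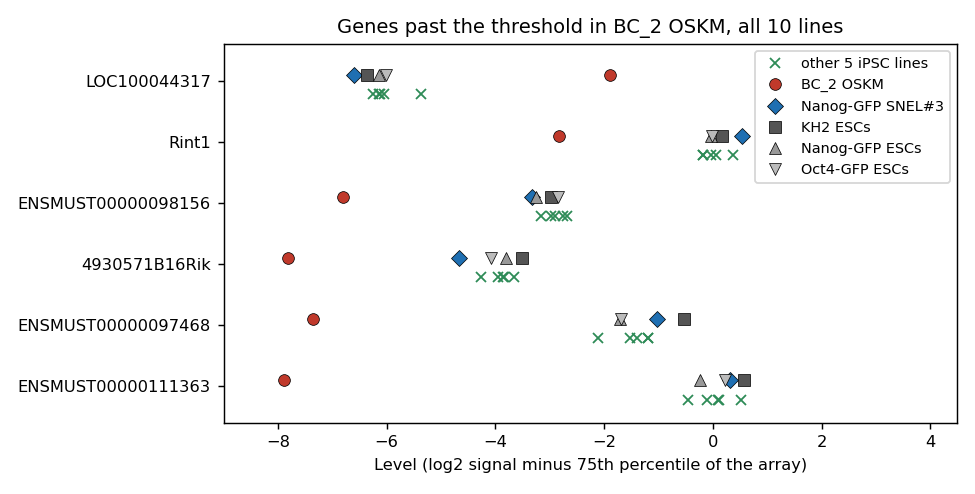
Levels (log2 signal minus the array's 75th percentile, x axis) of the 6 genes past the threshold in BC_2 OSKM, with the means of all 10 lines. BC_2 OSKM stands alone in each row; for ENSMUST00000111363 it measures -7.89 and every other line lies between -0.45 and 0.57.

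Nanog-GFP SNEL#3 had 0 genes past the threshold (0%), with a lowest adjusted p of 0.27 and 1730 genes at an unadjusted p under 0.05. The number of calls was 0 to 3 with 1 line left out: 3 without Nanog-GFP SNEL#2, 3 without Oct4-GFP SNEL#1, 2 without Oct4-GFP OSKM#2 and 1 without KH2_OSKM. Of the 5 smallest p-values, 1 belonged to a named developmental gene. Olig2, a transcription factor of the oligodendrocyte and motor neuron lineage, measured -6.25 and -6.63 on the 2 arrays of Nanog-GFP SNEL#3 and was not above background there. It measured -0.52 in BC_2 OSKM and 0.75, 0.00 and 0.07 in the ESC lines, a difference of at least 26.0-fold (adjusted p = 0.27). Its relative Olig1, also on chromosome 16 and chosen after its value was seen, behaved alike, at 0.80 in BC_2 OSKM, 1.60, 1.54 and 0.98 in the ESC lines and under background in Nanog-GFP SNEL#3. Of the other 5 iPSC lines, Nanog-GFP SNEL#2 had the lowest Olig2, at -4.25.

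The other 4, all higher in Nanog-GFP SNEL#3, rested on 1 array each. Dbpht2 measured -0.83 on the first array of Nanog-GFP SNEL#3 and -6.58 on the second. LOC100047683 measured -6.35 and -0.56, and 2 transcripts known only by their position on chromosomes 7 and 2 measured -6.36 and 0.38, and -3.21 and 0.36. A high signal on 1 of 2 arrays of the same line is not a reproducible difference of the line.

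Tested directly, the good lines differed from each other in 1 gene (0.00368%), ENSMUST00000111363, which was at least 67.6-fold lower in BC_2 OSKM (adjusted p = 0.0267). This test sets 1 line against 1 and assumes that both vary like the lines of the other groups. The fitted difference was -8.20 and, with normexp, -4.16, where the count was 2 and did not include this gene. The count was 0 without any 1 of the 3 ESC lines or without Nanog-GFP OSKM#2, 4 without either high-quality line and 2 without Oct4-GFP OSKM#2. The next smallest p-values were those of LOC100044317, Rint1 and ENSMUST00000098156, which BC_2 OSKM also set apart from the ESC lines (adjusted p = 0.0823 to 0.0905), and Map3k10, a kinase of the JNK pathway. Map3k10 again rested on 1 array, with -3.77 and 0.19 on the arrays of Nanog-GFP SNEL#3. Some genes low in 1 good line alone were picked with their values known. Olfr224, an olfactory receptor gene, measured -5.07 in BC_2 OSKM against 1.76 in the other good line and 1.33, 1.21 and 1.28 in the ESC lines (adjusted p against ESC lines 0.0604). Trim12a, an antiviral TRIM gene, was below background in Nanog-GFP SNEL#3 against 0.10 in BC_2 OSKM and 0.79, 0.61 and 0.55 in the ESC lines.

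Sex-linked genes differed widely among the ESC lines. The Y-linked helicase Ddx3y measured -3.06 in BC_2 OSKM, -0.30 in Nanog-GFP SNEL#3, -1.20 in KH2, -8.29 in Nanog-GFP and -0.71 in Oct4-GFP ESCs. Eif2s3y, a Y-linked translation factor, measured -3.12, 0.64, 1.39, -8.11 and 1.42 in the same order. Nanog-GFP ESCs had neither gene above background, and BC_2 OSKM had both at a level between those of Nanog-GFP ESCs and the other 3 lines. Sry, also Y-linked, had another order: it measured -5.20 in BC_2 OSKM against -5.59, -4.84 and -4.87 in the ESC lines, above background on both arrays of BC_2 OSKM and of Nanog-GFP ESCs, and on none of Nanog-GFP SNEL#3. The Y-linked genes Uty and Zfy1 were above background on 4 and 1 of the 10 arrays. Medians over whole autosomes, relative to each line's median, lay between -0.057 and 0.049 in BC_2 OSKM and between -0.044 and 0.032 in Nanog-GFP SNEL#3, less than the 0.172 of chromosome 8 in Oct4-GFP ESCs.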

How the data were processed

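RNA of each line was labelled with Cy3 and hybridised to one-colour Agilent arrays (design 028005), per the labels' protocols. The deposited intensity values are the processed signals of Feature Extraction 10.1.1.1, background-subtracted per the file headers. The authors' deposited value table holds log2 values with column medians of 6.27 to 6.28 whose centring is not given in the sources used here; it followed the scanner signals with a Spearman correlation of at least 0.998 and served as an alternative. The submitters' processing notes name limma.

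Here log2 signals were scaled to each array's 75th percentile, spots of a probe were averaged, and control spots and flagged outliers were left out. Probes that the scanner software marked as well above background on 4 or more of the 20 arrays were kept (38756 of 55681), and the brightest probe stood for a gene. Accessions of 26519 probes matched RefSeq, which changed 3149 symbols. The 2 arrays of a line were averaged. Lines entered limma 3.58.1 (R 4.3.3) with all 10 lines in 4 groups, or with each good line as its own group; p-values were adjusted over 27155 genes by Benjamini-Hochberg at 0.05. P-values measure the spread between lines only. In "at least N-fold", a dim probe was set on each array to the array's detection limit (the dimmest probe still well above background) unless its signal was higher, and the bright group's mean was divided by that of these values. The simulation given next drew independent noise for each line around a common gene mean. It held no slide differences, no likeness between single lines and no detection limit, so its shares may not hold for these data. The fits were tested on simulated data: among genes changed 4-fold, 54% were called for good against ESC lines and 33.3% for BC_2 OSKM alone, with 3 to 9 and 1 to 6 false calls per draw; the comparison of the good lines gave 19.3% and 0 to 5.

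Members and gene lists were chosen with earlier results of these data known. Named genes were those past the threshold. Where fewer than 10 passed, they were the 10 largest differences each way at an unadjusted p under 0.01 without overlap of groups. Such genes also carried a RefSeq symbol and were well above background on all arrays of the brighter group. For single lines the named genes were the 5 smallest p-values where fewer than 5 passed. Each list added up to 4 members outside the ESC range in both lines and up to 2 with the largest difference between the good lines, and the reprogramming factors, Dlk1-Dio3 genes, H2ax and sex-linked genes were always included; not every gene so named is printed. Other genes were named after their values were seen: Fn1, Sparc, Vim, Thy1, Dnmt1, Dnmt3a, Uhrf1, Cdkn1a, Gapdh, Eno1 and those so marked in the text. Alternatives were another normalization, background correction, filter, probe rule, slide or replicate block, and leaving out each line.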

Additional observations from a re-analysis of the deposited data

Results flagged for a closer look

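The probe ENSMUST00000111363 stood out because the good lines' differences from the same ESC lines were themselves different in a direct test. BC_2 OSKM minus Nanog-GFP SNEL#3 was -8.20 on the log2 scale (limma, adjusted p = 0.0267), and -4.16 with normexp. BC_2 OSKM was not well above background, so the difference is at least 67.6-fold. Each side is 1 line, assumed to vary like the other lines, and the gene was not called when any 1 ESC line was left out. Both arrays of BC_2 OSKM were low and both arrays of Nanog-GFP SNEL#3 lay within the range of the ESC lines.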

How the results depend on the processing

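Counts of genes past the threshold were higher with arrays as units. With single arrays and the line as a random block, good lines against ESC lines gave 10 genes, BC_2 OSKM against ESC lines 195, Nanog-GFP SNEL#3 against ESC lines 27 and BC_2 OSKM against Nanog-GFP SNEL#3 622. With slide as a block these were 4, 98, 3 and 188. With the replicate number as a block they were 5, 141, 18 and 297. The replicate numbers were not taken as pairing in the main fits. Still, deviations of first arrays correlated by over 0.1 in 29 of 45 pairs of lines (-0.10 to 0.51, median 0.17). First arrays thus shared part of their deviations in many pairs, and the cause was not tested. Using second arrays alone gave 1, 22, 25 and 29 genes, and first arrays alone 0, 1, 0 and 1.

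With line means, good lines against ESC lines stayed at 0 under quantile normalization, normexp, the authors' table and every filter tried, and ranged from 0 to 6 with 1 line left out (6 without Nanog-GFP SNEL#3, 1 without Oct4-GFP OSKM#2). BC_2 OSKM gave 2 genes after quantile normalization, 12 in the authors' table, 0 on genes above background on all 10 arrays (a filter chosen after seeing the data), 0 with only good and ESC lines, and 0 to 9 with 1 line left out. Nanog-GFP SNEL#3 gave 3 after quantile normalization, 11 with normexp, 2 in the authors' table, 41 with no filter, 2 with only good and ESC lines, and 0 to 3 with 1 line left out. The direct comparison gave 3, 2 and 8 under quantile normalization, normexp and the authors' table, 0 on genes above background on all 10 arrays, 0 without the poor-quality lines, and 0 to 4 with 1 line left out. The causes were not tested.

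Of the 67 genes named for good against ESC lines, 11 took the opposite sign under some setting and 56 moved by over 1.5 times under some setting. The sign turned with normexp for Usp17la (0.02), Wnt3 (0.02), Ptprc (0.03) and Peg10 (0.00), with the mean of probes for Usp17la (0.69) and Rpl21 (0.31), with the slide block for Kdr (0.05) and Rps21 (0.19), with first arrays alone for Rps21 (0.24), within the first slide for Pou5f1 (-0.04), Psmb8 (-0.14) and Usp17ld (0.03), and within the second for Peg10 (0.11), Kdr (0.25), Gtse1 (0.02) and Rps21 (0.33). Signal over background limits dim genes in Nanog-GFP SNEL#3.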
